A study of Homo sapiens with 12 samples.

Results

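The 9 genes described here are members of the STAT and SOCS families in human MOLM14 leukemia cells. They are the transcription factors STAT2, STAT3, STAT5A, STAT5B and STAT6 and the signalling inhibitors SOCS1, SOCS2, SOCS3 and CISH. They were chosen by name from the 61487 gene identifiers of the count table, and all 9 were among the 16104 genes with enough counts to be tested. ATRA was accompanied by more SOCS3 and STAT2 RNA both without and with DOX. It was also accompanied by less STAT3 RNA, a fall that passed the test without DOX only. CISH RNA fell when ATRA was added to DOX, while its rise with DOX alone was lost when any of 4 single libraries was left out. No member passed edgeR's test between the combined and the ATRA group, where 4.43% of all genes passed, so for 9 genes that count is near the general share. In that comparison STAT6 passed with DESeq2, and SOCS3 passed when certain single libraries were left out.

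STAT proteins wait in the cytoplasm until a cytokine receptor is engaged. JAK kinases bound to the receptor then phosphorylate them, and STAT dimers enter the nucleus and switch genes on. STAT2 works with IRF9 and a further STAT partner in the complex ISGF3, which answers type I interferon, while STAT3 answers interleukin 6 and related cytokines, STAT5A and STAT5B answer growth factors of blood cells, and STAT6 answers interleukin 4 and interleukin 13. The SOCS proteins and CISH close the loop, since STATs induce their genes and the proteins then block the receptor or its JAK, or mark them for degradation. MOLM14 cells carry a constitutively active FLT3 receptor, a class of lesion known to keep STAT5 active in acute myeloid leukemia.

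MOLM14 is an acute myeloid leukemia line of monocytic character. All cells of the study, the untreated ones included, carried a doxycycline-inducible shRNA that targets NRIP1, the gene of the transcriptional coregulator RIP140, and grew in medium with tetracycline-free serum. The 4 groups of 3 biological replicates were untreated cells, cells given ATRA, which is all-trans retinoic acid (48 h at 1 µM), cells given doxycycline (DOX, 50 ng/mL, which switches the shRNA on), and cells given both, called the combined group. No group with a control shRNA was analysed here, so an effect of doxycycline itself and an effect of the shRNA cannot be told apart, and the time on DOX is not given in the sources used here. RNA of whole cultures was sequenced, so fewer cells with a transcript and less transcript per cell cannot be told apart either.

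Gene counts summed to between 2685984 (DOX replicate 3) and 19358619 (DOX replicate 2) per library. NRIP1 RNA was lower with DOX both without ATRA (log2 change −1.77 ± 0.13, SE, adjusted p = 1.47e-07) and with it (−1.22 ± 0.13, adjusted p = 6.49e-06). All 9 markers of monocytic leukemia were detected, with a summed level of 694 to 908 CPM (counts of a gene scaled to a common library size) across libraries. Markers of T, B and NK lymphocytes summed to 11.96 to 26.1 CPM, most of it NKG7 (group means of 11.97 to 20.9 CPM), and CD3E was at 0 in all libraries. Markers of erythroid and megakaryocytic cells summed to at most 0.425 CPM and those of fibroblast, endothelial and epithelial cells to at most 0.478 CPM. The DOX libraries lay farther from one another than those of the other groups did (root mean square log2 difference of 0.334 to 0.351 against 0.192 to 0.285). Outside the DOX group, combined replicate 1 lay farthest from its group (0.285). Mitochondrial ribosomal RNA took 2.54 to 4.6% of counts in the untreated libraries and 1.02 to 2.18% in the DOX libraries. Results that change without one of these libraries are given with and without it.

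The promoters of CISH and SOCS1 are shown first, because they were the windows of any member that held the textbook letters of a STAT site with 3 spacer bases or of an interferon element. The upstream windows are RefSeq sequences of GRCh38.p14, available for 8 of the 9 members. Not all of them adjoin the start of the gene span given below. The SOCS3 windows (chr17:78360926-78361175 and chr17:78359668-78359917) do not touch the start of its span at chr17:78360077. The STAT6 window (chr12:57110290-57110539) lies inside its span, which starts at chr12:57132139. The bases just before these SOCS3 and STAT6 starts were not searched, so matches there were not tested. The letters searched on both strands were TTCNNNGAA, the GAS element bound by STAT dimers, its wider form that STAT6 favours (TTC and GAA with 4 bases between them, N in each place), and the core of the interferon element ISRE (GAAA and GAAA with 2 bases between them). Capitals mark GAS matches in CISH (minus strand, chr3:50611832-50612024, from 250 to 58 bases before the start) and the ISRE match in SOCS1 (minus strand, chr16:11256205-11256454, the 250 bases before the start).
CISH: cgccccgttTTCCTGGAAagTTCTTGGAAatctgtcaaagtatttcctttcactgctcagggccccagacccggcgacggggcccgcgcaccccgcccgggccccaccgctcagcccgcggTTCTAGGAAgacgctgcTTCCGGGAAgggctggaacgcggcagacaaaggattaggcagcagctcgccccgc
SOCS1: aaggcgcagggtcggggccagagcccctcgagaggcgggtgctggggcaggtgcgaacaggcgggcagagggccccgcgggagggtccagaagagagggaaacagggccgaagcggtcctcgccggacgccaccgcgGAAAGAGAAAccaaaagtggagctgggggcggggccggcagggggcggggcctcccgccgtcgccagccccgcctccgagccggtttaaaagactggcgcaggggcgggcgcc
CISH held 4 GAS matches in 2 pairs. Of 35116 windows of 250 bases, 6.57% held a GAS match and 0.356% held 2 or more, so the CISH window is among a small share of promoters. SOCS1 held 1 ISRE match, as did 3.02% of windows. Of 3 STAT5A windows, 1 held the wider form, as did 5.38% of all windows, and another held the retinoid receptor motif AGGTCA once (12.1% of windows). No member window held AGGTCA as a direct repeat with 5 or 2 bases between, the classical retinoid elements, which 0.00285% of windows held for each spacing. These matches describe letters and were not tested for binding.

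STAT5B, STAT5A and STAT3 sit side by side on chromosome 17 (GRCh38, GENCODE release 29). STAT5B spans chr17:42199168-42276707 on the minus strand, STAT5A spans chr17:42287547-42311943 on the plus strand, 10.8 kb away, and STAT3 spans chr17:42313324-42388568 on the minus strand, 1.38 kb farther. STAT2 (chr12:56341597-56360155) and STAT6 (chr12:57095408-57132139), both on the minus strand, lie 735 kb apart on chromosome 12. The inhibitor genes lie apart from one another, with SOCS1 at chr16:11254405-11256200, SOCS2 at chr12:93569814-93583487, SOCS3 at chr17:78356778-78360077 and CISH at chr3:50606490-50611831, all minus but SOCS2. All 9 are protein-coding. STAT5A and STAT5B share sequence, with 11.9% of the 50-base stretches of the STAT5A transcript also found in STAT5B, so reads of either may be lost or split. CISH shares 218 of its 5112 exon bases with MAPKAPK3 on the other strand, and SOCS2 shares 277 of 6776 with SOCS2-AS1. The strand setting of the counting is not given in the sources used here.

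Scaled by exon length, the members spanned a wide range in untreated cells. Exon length here joins the exons of all annotated transcripts of a gene. It exceeds the longest coding transcript unevenly, at 5112 against 2167 bases for CISH, 6109 against 3259 for STAT2 and 2734 against 2734 for SOCS3. The order of the genes below and their overlaps hold for this scale, and another length scale was not tested. STAT6 (31.9 ± 1.61 CPM per kilobase, SD, n = 3) and SOCS2 (29.2 ± 2.26) were highest, and their libraries overlapped. STAT3 followed at 14.7 ± 0.395, then STAT5B at 9.97 ± 0.818 and STAT5A at 8.60 ± 0.332, each apart from its neighbour in every library. STAT2 (6.66 ± 0.646), CISH (6.66 ± 0.104) and SOCS1 (6.39 ± 0.731) overlapped, and SOCS3 was lowest at 1.71 ± 0.199 CPM per kilobase. With ATRA, STAT2 stood at 10.7 ± 0.927 and overlapped STAT3 (11.6 ± 0.309) and STAT5A (10.0 ± 0.862). SOCS3 was last in the untreated, ATRA and DOX groups, and in the combined group its 6.19 ± 1.62 overlapped both CISH (5.82 ± 1.41) and SOCS1 (7.55 ± 1.81).

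**Figure D1:**
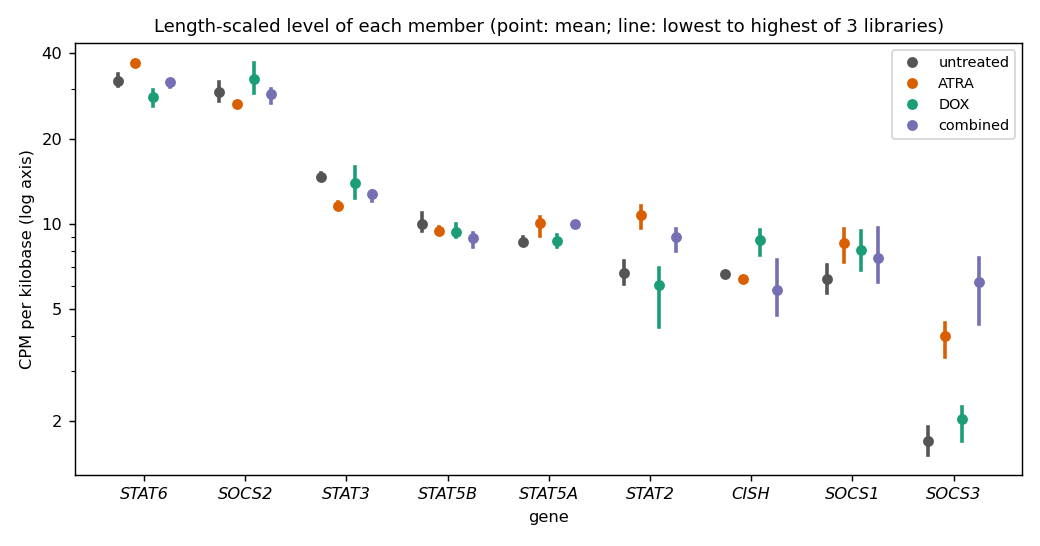
Length-scaled level of each member in CPM per kilobase (log axis), by group. Points are means of 3 libraries and lines run from the lowest to the highest library; STAT6 and SOCS2 are at the top in all groups, and SOCS3 moves from 1.71 in untreated cells to 6.19 in the combined group.

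Changes were tested with edgeR's quasi-likelihood test, and a gene is said to have risen or fallen at a Benjamini-Hochberg adjusted p under 0.05 over all 16104 genes. With ATRA alone, 3 of 9 members rose and 1 fell, where 15.7% of all tested genes rose and 13.2% fell (28.9% in all), and the median change was 0.22 for the members and −0.01 for all genes (log2). The libraries did not overlap for 8 of 9 members, 5 higher and 3 lower, against 22.8% of all genes higher and 22.5% lower (45.3% in all). With DOX alone 1 member rose and 0 fell, where 8.08% of all genes rose and 7.10% fell (15.2% in all). For DOX 2 of 9 did not overlap, 1 higher and 1 lower, against 17.0% higher and 13.9% lower (30.8% in all). Between the combined and the DOX group, which is the ATRA comparison while the shRNA was on, 2 rose and 1 fell, where 10.7% of all genes rose and 8.24% fell (19.0% in all). Here 5 of 9 did not overlap, 4 higher and 1 lower, against 16.7% higher and 13.5% lower (30.2% in all). From untreated to combined cells 3 rose and 0 fell, where 19.6% of all genes rose and 18.5% fell (38.0% in all), and 5 of 9 did not overlap, 3 higher and 2 lower, against 26.1% higher and 25.1% lower (51.2% in all). The share of all genes called for DOX alone itself depended on single libraries, at 3.97% without DOX replicate 2, 4.475% without untreated replicate 3 and 26.1% without DOX replicate 1. It was 1.04% without the pair of untreated replicate 3 plus DOX replicate 3, and 0.478% with a model term for mitochondrial ribosomal RNA. These comparisons share groups, so their values stand side by side and do not support one another.

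Between the combined and the ATRA group, which is the DOX comparison in the presence of ATRA, 0 of the 9 members passed edgeR's test, where 1.89% of all genes rose and 2.54% fell (4.43% in all). At an unadjusted p under 0.05 the count was 2 (STAT6 and SOCS3). DESeq2 passed 1, STAT6, at −0.23 with an adjusted p of 0.0497, where it passed 4.53% of all genes. The libraries of 4 members did not overlap, 2 higher and 2 lower, against 13.1% of all genes higher and 13.4% lower (26.5% in all). For the interaction, meaning the ATRA change under DOX less the ATRA change in its absence, the count was also 0 of 9, where 0.0435% of all genes were higher and 0.224% lower (0.267% in all), with 2 members (SOCS1 and CISH) at an unadjusted p under 0.05. DESeq2 passed 0 members for the interaction, where it passed 0.7265% of all genes. The share of all genes at an unadjusted p under 0.05 was not counted for either comparison. Whether 2 of 9 members differs from that share was therefore not tested. With single libraries left out, the share of all genes called ran from 1.58% (without ATRA replicate 3) to 6.21% (without DOX replicate 1) between combined and ATRA. For the interaction it ran from 0.0599% (without ATRA replicate 3) to 4.51% (without DOX replicate 1).

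**Figure D2:**
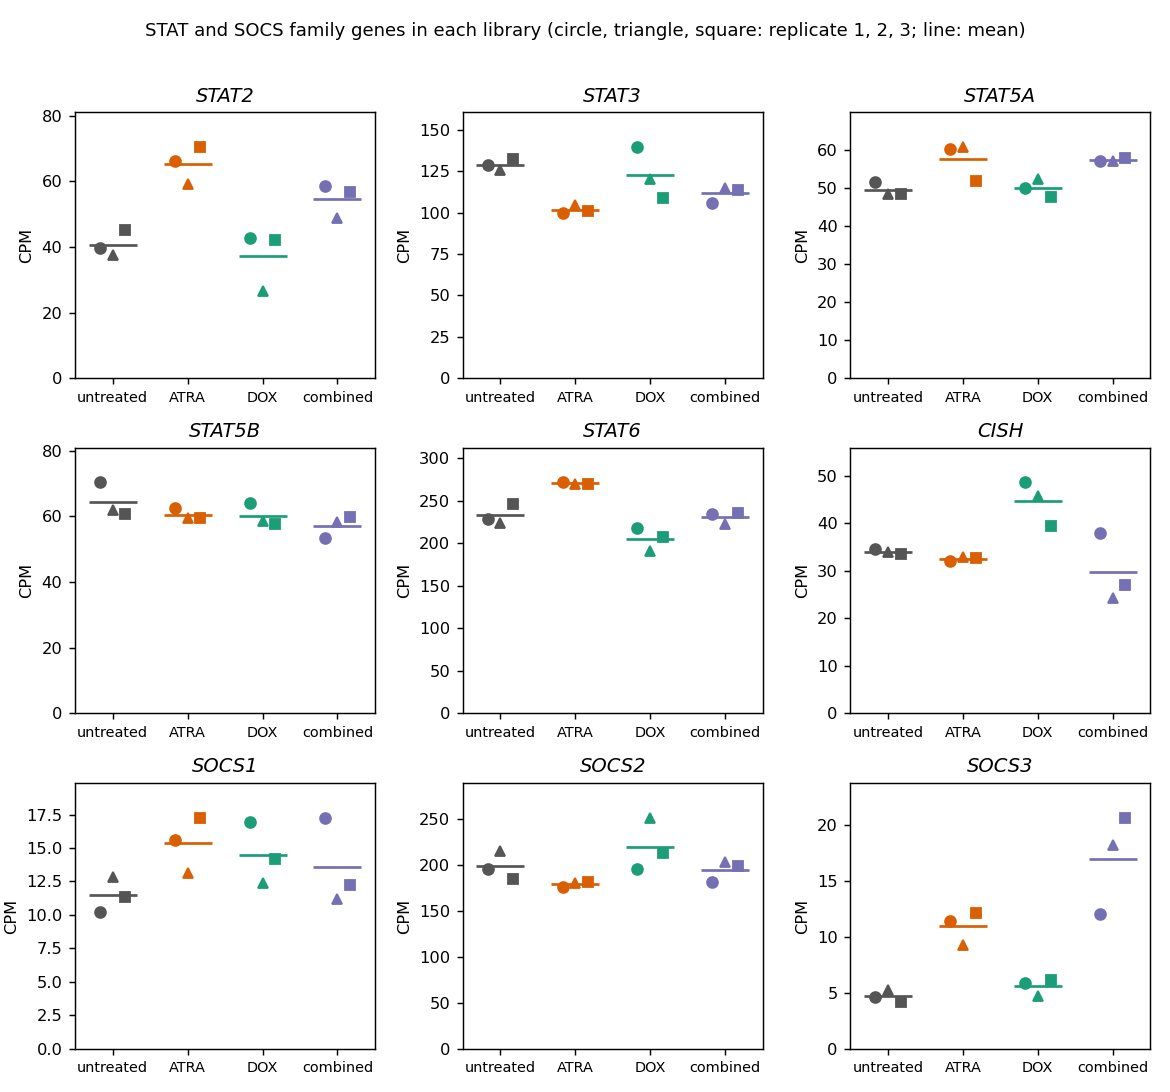
CPM of each member in every library, by group; symbols mark the replicate, horizontal lines the mean of 3 libraries, and each vertical axis starts at 0. SOCS3 and STAT2 lie higher in the ATRA and combined libraries, STAT3 lies lower with ATRA, and CISH is highest in the DOX libraries (39.55 to 48.6 CPM).

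STAT2, the interferon-specific STAT, was measured at 39.5, 37.45 and 45.1 CPM in untreated replicates 1 to 3 and at 66.3, 59.2 and 70.4 CPM with ATRA. All ATRA libraries were above all untreated ones, and STAT2 rose 1.60-fold (log2 change 0.68 ± 0.13, adjusted p = 0.000599). DOX replicates 1 to 3 stood at 42.7, 26.4 and 42.2 CPM, and those of the combined group at 58.4, 48.8 and 56.7 CPM. DOX replicate 2 was lower than every untreated library while the other two lay among them, and no DOX effect was called (−0.19 ± 0.14, adjusted p = 0.391, 95% interval −0.49 to 0.11). STAT2 rose again with ATRA under DOX (0.61 ± 0.14, adjusted p = 0.00404). It also rose from untreated to combined cells (0.42 ± 0.13, adjusted p = 0.0183), a call that was lost without untreated replicate 2 (0.37, adjusted p = 0.0714). All combined libraries were below all ATRA libraries, but that difference was not called (−0.26 ± 0.13, adjusted p = 0.302). Without DOX replicate 1, STAT2 was called lower with DOX (−0.40, adjusted p = 0.0486).

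STAT3, the factor of interleukin 6 and granulocyte colony-stimulating factor signalling, stood at 128.9, 125.8 and 132.8 CPM in untreated and 99.8, 105 and 100.8 CPM in ATRA libraries. The groups did not overlap, and STAT3 fell to 0.788 of its untreated level (−0.34 ± 0.08, adjusted p = 0.00414). With DOX the values spread from 108.7 to 139.7 CPM around the untreated ones (−0.06 ± 0.09, adjusted p = 0.688). The combined libraries held 106.1, 115.1 and 114 CPM, above every ATRA library and below every untreated one, and neither difference was called (0.13 ± 0.09, adjusted p = 0.429, and −0.21 ± 0.08, adjusted p = 0.0547). The second of these was called without DOX replicate 1 (−0.20, adjusted p = 0.0301) and with both groups fitted alone (−0.21, adjusted p = 0.0239). It was also called at equal depth (−0.31, adjusted p = 0.0311), here and below a single random thinning of the libraries to 2685984 counts. Under DOX, ATRA gave −0.15 ± 0.09 (adjusted p = 0.240). The difference between both ATRA effects was 0.19 ± 0.12 (adjusted p = 0.597), with a 95% interval from −0.06 to 0.44.

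STAT5A and STAT5B, the near-identical factors that carry growth factor and FLT3 signals, changed little. STAT5A was at 51.7, 48.4 and 48.3 CPM in untreated and 60.3, 60.8 and 52.0 CPM in ATRA libraries, without overlap but short of the threshold (0.22 ± 0.08, adjusted p = 0.0519). That value passed without ATRA replicate 3 (0.31, adjusted p = 0.0181), DOX replicate 1 (0.23, adjusted p = 0.0427) or DOX replicate 2 (0.23, adjusted p = 0.0392). The DOX libraries, at 50.15, 52.3 and 47.6 CPM, reached slightly beyond the untreated ones on both sides (0.03 ± 0.09, adjusted p = 0.856), and the combined libraries were close together at 57.0, 57.2 and 58.0 CPM. STAT5A rose from untreated to combined cells by 0.21 ± 0.08 (adjusted p = 0.0493). This call sat at the threshold: it was lost without any 1 untreated or any 1 combined library or without ATRA replicate 2, with values from 0.20 to 0.25, and with DESeq2 (0.21, adjusted p = 0.0797).

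STAT5B was at 70.3, 61.9 and 60.7 CPM in untreated cells, 62.5, 59.5 and 59.7 with ATRA, 64.1, 58.5 and 57.6 with DOX, and 53.4, 58.2 and 59.85 in the combined group. No comparison of STAT5B passed at full depth. At equal depth it was called lower with DOX (−0.36, adjusted p = 0.0356, against −0.09 ± 0.09 at full depth) and in combined against untreated cells (−0.30, adjusted p = 0.0382). Equal depth rests on a single random draw, and how far these values vary between draws was not tested. Its ATRA effect lay within a 95% interval of −0.26 to 0.09, and its change from untreated to combined cells at full depth was −0.17 ± 0.09 (adjusted p = 0.121). Without ATRA, the counts of STAT5A per count of STAT5B were 0.735, 0.783 and 0.797 (untreated) and 0.783, 0.894 and 0.827 (DOX). With ATRA they were 0.965, 1.02 and 0.871 (ATRA alone) and 1.07, 0.982 and 0.969 (combined). These ratios, given as a description, were higher with ATRA apart from a single crossing, since DOX replicate 2 lay above ATRA replicate 3.

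STAT6, the interleukin 4 factor, was at 228.3, 224 and 246.2 CPM in untreated cells and at 271.5, 270.2 and 270.1 CPM with ATRA. Every ATRA library was above every untreated one, and STAT6 rose 1.16-fold (0.22 ± 0.08, adjusted p = 0.0400). The call was lost without untreated replicate 1 or 2, any 1 ATRA library or combined replicate 2 (0.19 to 0.23), without a filter on low counts (0.25, adjusted p = 0.113) and at equal depth (0.14, adjusted p = 0.291). DOX libraries were lower than all untreated ones at 217.4, 190.8 and 207.3 CPM (−0.18 ± 0.08, adjusted p = 0.110), and combined libraries were lower than all ATRA ones at 234.4, 222.4 and 235.8 CPM (−0.23 ± 0.08, adjusted p = 0.102). Neither passed in edgeR's test at full depth with all libraries. The first did without DOX replicate 1 (−0.23, adjusted p = 0.0478) and at equal depth (−0.28, adjusted p = 0.0439), and the second did with DESeq2 (−0.23, adjusted p = 0.0497). In the combined group STAT6 was near its untreated level (−0.01 ± 0.08, 95% interval −0.17 to 0.15).

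**Figure D3:**
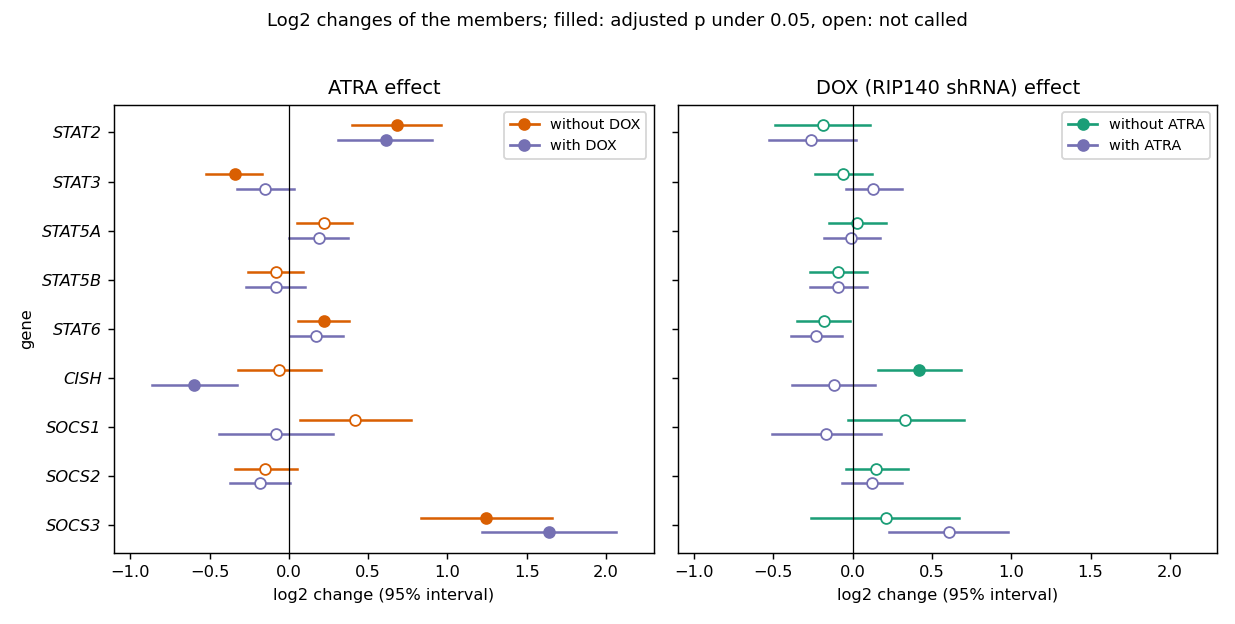
Log2 changes of the 9 members with 95% intervals, for ATRA without and with DOX (left) and for DOX without and with ATRA (right). Filled points passed an adjusted p of 0.05; SOCS3 has the largest ATRA changes (1.24 and 1.64), and CISH has the single call for DOX (0.42).

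SOCS3, the inhibitor that binds receptors of the gp130 type and that STAT3 is known to induce, was the member that changed most. It was at 4.64, 5.23 and 4.14 CPM in untreated and 11.4, 9.24 and 12.15 CPM in ATRA libraries, a rise of 2.37-fold (1.24 ± 0.20, adjusted p = 6.31e-05). With DOX it stayed low at 5.89, 4.67 and 6.14 CPM (0.21 ± 0.22, adjusted p = 0.557). The combined libraries held 12.03, 18.1 and 20.6 CPM, all above the DOX libraries, and SOCS3 rose 3.12-fold with ATRA under DOX (1.64 ± 0.20, adjusted p = 3.74e-06) and 3.61-fold from untreated to combined cells (1.85 ± 0.19, adjusted p = 2.47e-07). These 3 calls held when any 1 library was left out. Counts were low, from 16 in DOX replicate 3 to 226 in combined replicate 2.

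Combined replicates 2 and 3 were above all ATRA libraries for SOCS3, while combined replicate 1 lay among them. The difference between combined and ATRA was 0.61 ± 0.18 (adjusted p = 0.0583). It passed without combined replicate 1 (0.82, adjusted p = 0.00357), DOX replicate 1 (0.61, adjusted p = 0.0349) or DOX replicate 2 (0.61, adjusted p = 0.0335), and also without a filter on low counts (0.61, adjusted p = 0.0129) or with both groups fitted alone (0.60, adjusted p = 0.0490). FOS, an immediate early gene on the STAT3 target list, separated the same library, at 9.68, 105 and 108.6 CPM in combined replicates 1 to 3, and whether both patterns have one source was not tested. SOCS3 rose while STAT3 fell with ATRA alone. The SOCS3 interaction was 0.40 ± 0.29 (adjusted p = 0.647, 95% interval −0.20 to 0.99).

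CISH, the founding member of the family and a classical STAT5 target, was nearly constant without DOX, at 34.6, 33.9 and 33.5 CPM in untreated and 32.0, 33.0 and 32.8 CPM in ATRA libraries (−0.06 ± 0.13, adjusted p = 0.757), the ATRA values lying just below the untreated ones. In the DOX libraries it was at 48.6, 45.7 and 39.55 CPM, above every untreated library, and rose 1.34-fold (0.42 ± 0.13, adjusted p = 0.0306). This was the one call among the members for DOX alone, and it was not stable. It was lost without untreated replicate 2 (0.41, adjusted p = 0.0690), untreated replicate 3 (0.42, adjusted p = 0.0991), DOX replicate 1 (0.36, adjusted p = 0.0529) or DOX replicate 2 (0.42, adjusted p = 0.0941), and with library size alone as the scale (0.38, adjusted p = 0.0832). Without untreated replicate 3 and DOX replicate 3 together it was 0.47 (adjusted p = 0.118). The share of mitochondrial ribosomal RNA was lower in every DOX library than in every untreated one, and with that share as a model term the CISH value was 0.54 (adjusted p = 0.281). MAPKAPK3, which overlaps CISH on the other strand and had 24753 counts to 5246 for CISH over all libraries, changed by 0.19 ± 0.08 with DOX (adjusted p = 0.0952).

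In the combined libraries CISH was at 37.9, 24.2 and 27.1 CPM, all below the DOX libraries, and it fell to 0.661 of the DOX level (−0.60 ± 0.13, adjusted p = 0.00180). That call held without any 1 library, with values from −0.81 to −0.47. Combined replicate 1 was above all untreated and ATRA libraries and the other two were below them, so that combined cells did not differ in the test from untreated (−0.18 ± 0.12, adjusted p = 0.269) or ATRA cells (−0.12 ± 0.13, adjusted p = 0.662). The ATRA effect on CISH differed with and without DOX by −0.54 ± 0.18, which did not pass (adjusted p = 0.265 in edgeR's quasi-likelihood test over all genes). Without combined replicate 1, which is also the library with low FOS, the interaction passed (−0.76, adjusted p = 0.0112), as did the change from untreated to combined cells (−0.39, adjusted p = 0.00855).

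SOCS1, the inhibitor of interferon signalling that binds JAKs directly, was at 10.2, 12.9 and 11.3 CPM in untreated and 15.6, 13.2 and 17.25 CPM in ATRA libraries. These did not overlap, and the change missed the threshold (0.42 ± 0.17, adjusted p = 0.0636). It passed without ATRA replicate 2 (0.51, adjusted p = 0.0444), DOX replicate 1 (0.42, adjusted p = 0.0378), DOX replicate 2 (0.43, adjusted p = 0.0375), combined replicate 1 (0.44, adjusted p = 0.0262) or combined replicate 2 (0.43, adjusted p = 0.0485). It also passed without a filter (0.45, adjusted p = 0.0285), with both groups fitted alone (0.42, adjusted p = 0.0155) and with the mitochondrial term (0.53, adjusted p = 0.0198). The DOX libraries held 16.95, 12.35 and 14.2 CPM (0.33 ± 0.17, adjusted p = 0.192). In the combined group, replicate 1 was highest at 17.26 CPM and the others were at 11.2 and 12.25 CPM, next to the untreated values. The interaction was −0.50 ± 0.24 (adjusted p = 0.462).

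SOCS2, which restrains growth hormone and FLT3 signalling and is a STAT5 target, was abundant and passed no comparison. Untreated libraries held 195.6, 214.6 and 184.3 CPM and ATRA libraries 176.1, 180.1 and 181.2 CPM. DOX libraries held 195.7, 251.1 and 212.7 CPM and combined ones 181.5, 203.3 and 199.2 CPM. All ATRA libraries were below all untreated ones (−0.15 ± 0.09, adjusted p = 0.250, 95% interval −0.34 to 0.05), while DOX libraries overlapped them (0.15 ± 0.09, adjusted p = 0.259). Under DOX the ATRA effect was −0.18 ± 0.09 (adjusted p = 0.194), and it passed without DOX replicate 1 (−0.26, adjusted p = 0.0432). SOCS2-AS1, the antisense RNA that overlaps SOCS2, fell with ATRA (−0.45 ± 0.10, adjusted p = 0.00237).

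The remaining genes of the family are SOCS4, SOCS5, SOCS6 and SOCS7, which are known mainly from growth factor receptor signalling. Of these 4, 2 rose with ATRA alone and 1 rose with ATRA under DOX, where 15.7% and 10.7% of all genes rose. None passed for DOX without or with ATRA. There 15.2% and 4.43% of all genes passed, so for 4 genes that count is near the general shares. SOCS6 went from a mean of 9.32 CPM in untreated to 12.96 CPM in ATRA libraries (0.49 ± 0.14, adjusted p = 0.0111, and 0.39 with an adjusted p of 0.0703 without untreated replicate 3). It rose under DOX as well (0.57 ± 0.14, adjusted p = 0.00583). SOCS4 rose by 0.36 ± 0.12 (adjusted p = 0.0313), which was lost without untreated replicate 3 (0.25, adjusted p = 0.177), ATRA replicate 2 (0.33, adjusted p = 0.0857) or ATRA replicate 3 (0.32, adjusted p = 0.0995).

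Upstream of the members, receptors and JAKs moved widely with ATRA. Of 34 listed genes 28 were tested, and 19 rose and 1 fell with ATRA, against 15.7% and 13.2% of all genes, with a median of 0.55. IFNAR2, a chain of the type I interferon receptor, rose by 1.33 ± 0.10 (adjusted p = 8.47e-10). CSF1R, the receptor for macrophage colony-stimulating factor, rose by 1.89 ± 0.16 (adjusted p = 7.20e-09) and the interleukin 7 receptor IL7R by 1.61 ± 0.15 (adjusted p = 2.76e-08). JAK2 rose by 0.81 ± 0.12, TYK2 by 0.40 ± 0.08 and JAK1 by 0.42 ± 0.11, and JAK3 was not called (−0.37 ± 0.18, adjusted p = 0.142). FLT3 itself was not called (0.09 ± 0.08, adjusted p = 0.461). CSF1R is also a marker of the monocytic line, and of the 8 tested markers of that list 3 rose and 3 fell with ATRA, whose part in the receptor counts was not tested. Under DOX, ATRA raised 15 and lowered 1 of the 28, against 10.7% and 8.24% of all genes, with a median of 0.46.

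With the shRNA on, some of these receptor levels were lower. Between combined and ATRA cells 5 of the 28 fell and none rose, against 2.54% and 1.89% of all genes, with a median of −0.21. They were IL7R, IL6ST, CSF1R, TYK2 and IL13RA1, and without ATRA replicate 1, ATRA replicate 3 or combined replicate 2 the number was 2. IL7R was at 27.6, 23.5 and 30.2 CPM with ATRA and at 14.01, 12.5 and 10.4 CPM in the combined libraries (−1.12 ± 0.14, adjusted p = 6.52e-05). IL6ST, the gp130 chain through which STAT3 is activated and to which SOCS3 binds, was at 22.7, 24.8 and 25.8 CPM with ATRA and 16.4, 13.4 and 13.3 CPM in the combined group (−0.75 ± 0.13, adjusted p = 0.00144). It was lower with DOX alone as well (−0.62 ± 0.16, adjusted p = 0.0121), a call lost without DOX replicate 2 (−0.47, adjusted p = 0.135) and with the mitochondrial term (−0.45, adjusted p = 0.582). Of the 28, IL7R alone passed for the interaction (−1.08 ± 0.22, adjusted p = 0.0339), where 0.267% of all genes passed. The call was lost without any 1 untreated library, ATRA replicate 1 or 3, or combined replicate 2 or 3 (−1.19 to −0.93 over all single libraries left out). IL13RA1 fell just short (−0.66 ± 0.14, adjusted p = 0.0558). The median interaction was −0.20 for the 28 and −0.01 for all genes.

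Few cytokine genes were expressed. Of 25 listed ligands 5 had enough counts, and with ATRA 1 rose and 2 fell, numbers that were 0 and 0 at equal depth. The ligand that rose was CSF1, with 8, 2 and 10 counts in the untreated and 9, 17 and 0 in the DOX libraries. It was tested through the groups with ATRA, so its rise was set by the filter. OSM, which encodes the gp130 cytokine oncostatin M and is itself a STAT5 target, was at a mean of 3.04 CPM in untreated and 0.967 CPM in ATRA libraries (−1.65 ± 0.32, adjusted p = 0.000452). Among 17 other inhibitors and SOCS box partners 2 rose (11.8%) and 2 fell (11.8%) with ATRA, near the 15.7% and 13.2% of all genes, with a median of 0.02. SH2B3, the adaptor LNK that restrains JAK2, rose by 1.23 ± 0.09 (adjusted p = 5.92e-10), and the phosphatase PTPN6 by 0.93 ± 0.09 (adjusted p = 7.46e-08). Both rose under DOX as well (1.09 ± 0.09 and 0.62 ± 0.09). The ubiquitin ligase CBL fell (−0.35 ± 0.13, adjusted p = 0.0410), as did the SUMO ligase PIAS2 (−0.29 ± 0.10, adjusted p = 0.0373).

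Genes known as targets of the STATs are listed by factor, though many also answer other regulators, and OSM, IL2RA, IL4R, OSMR and USP18 stand on more than 1 list. Of 24 STAT2 targets, the genes induced through ISGF3, 19 rose and none fell with ATRA, with a median of 1.61. Of all genes 15.7% rose and 13.2% fell. With ATRA under DOX 20 of the 24 rose, with a median of 1.13, where 10.7% of all genes rose. BST2, which tethers budding virions, was at a mean of 46.7 CPM in untreated and 139.3 CPM in ATRA libraries (1.57 ± 0.09, adjusted p = 1.70e-11), and IFIT3 rose by 2.85 ± 0.26 (adjusted p = 3.64e-08). The antiviral gene MX1, also on the list, was not called (−0.71 ± 0.35, adjusted p = 0.143), nor was IRF9, the partner of STAT2, at a mean of 0.425 CPM in untreated and 0.903 CPM in ATRA libraries. IFI44L and OASL had 2 and 13 counts in all over the untreated libraries and were tested through the groups with ATRA, so their rise was set by the filter. DOX alone raised 2 of the 24 (8.33%), a share near the 8.08% of all genes. The combined and ATRA groups differed for 1 (4.17%, against 4.43% of all genes), XAF1 (0.47 ± 0.09, adjusted p = 0.00500, and 0.31 with an adjusted p of 0.188 at equal depth).

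Of 11 tested targets of STAT5, 6 rose (54.5%) and 2 fell (18.2%) with ATRA, with a median of 0.36. Of all genes 15.7% rose and 13.2% fell, so the share that fell was near the general one. CISH and SOCS2, counted as members, were not called. PIM1, a survival kinase, was at 32.1, 28.6 and 32.8 CPM in untreated and 237.2, 218.3 and 223.2 CPM in ATRA libraries (2.86 ± 0.14, adjusted p = 8.36e-13). It was lower in combined than in ATRA libraries, at 103.6, 146.6 and 168.9 CPM (−0.70 ± 0.12, adjusted p = 0.00167). Between these groups 1 of the 11 fell, PIM1, and 1 rose, where 2.54% of all genes fell and 1.89% rose. The gene that rose was MCL1, an anti-apoptotic gene, by 0.32 ± 0.09 (adjusted p = 0.0426). That MCL1 call was lost without any 1 ATRA library, untreated replicate 1 or 2, DOX replicate 3 or combined replicate 2 or 3. MCL1 rose with ATRA by 0.58 ± 0.09 (adjusted p = 3.47e-05), and MYC fell (−0.55 ± 0.09, adjusted p = 0.000140).

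Among 13 tested STAT3 targets 8 rose (61.5%) and 2 fell (15.4%) with ATRA, with a median of 0.49, in the comparison in which STAT3 itself fell. Of all genes 15.7% rose and 13.2% fell, so the share of these targets that fell was near the general one. LRG1, a secreted leucine-rich glycoprotein made in myeloid differentiation, was at 73.4, 82.6 and 84.75 CPM in untreated and 405.6, 416.4 and 385.7 CPM in ATRA libraries (2.32 ± 0.10, adjusted p = 1.29e-13). DOX raised LRG1 without ATRA (0.77 ± 0.10, adjusted p = 0.000194) and with it (0.60 ± 0.09, adjusted p = 0.000446), to 542, 633.5 and 661.6 CPM in the combined libraries. LRG1, like SOCS3, was highest in the combined group, and the lowest of the combined libraries was combined replicate 1 for both.

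Of 15 listed STAT6 targets 6 were tested, and 5 rose with ATRA and none fell, where 15.7% of all genes rose and 13.2% fell. CLEC10A and TGM2 had 7 counts each in all over the untreated libraries and were tested through the groups with ATRA, so their rise was set by the filter, and the count is no share of the whole list. TGM2, a member of this list, is also a textbook retinoid-induced gene. CD209, the lectin DC-SIGN, was at 1.55, 1.46 and 1.99 CPM in untreated and 132.6, 110.7 and 128.6 CPM in ATRA libraries (6.17 ± 0.23, adjusted p = 1.24e-14). In the combined libraries CD209 was at 46.96, 28.2 and 36.65 CPM, below every ATRA library (−1.73 ± 0.16, adjusted p = 2.23e-06). Between these groups 2 of the 6 fell, where 2.54% of all genes fell. They were CD209 and the lectin CLEC10A (−1.71 ± 0.24, adjusted p = 0.000144). STAT6 itself was not called in edgeR's test and was called lower with DESeq2 (−0.23, adjusted p = 0.0497).

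**Figure D4:**
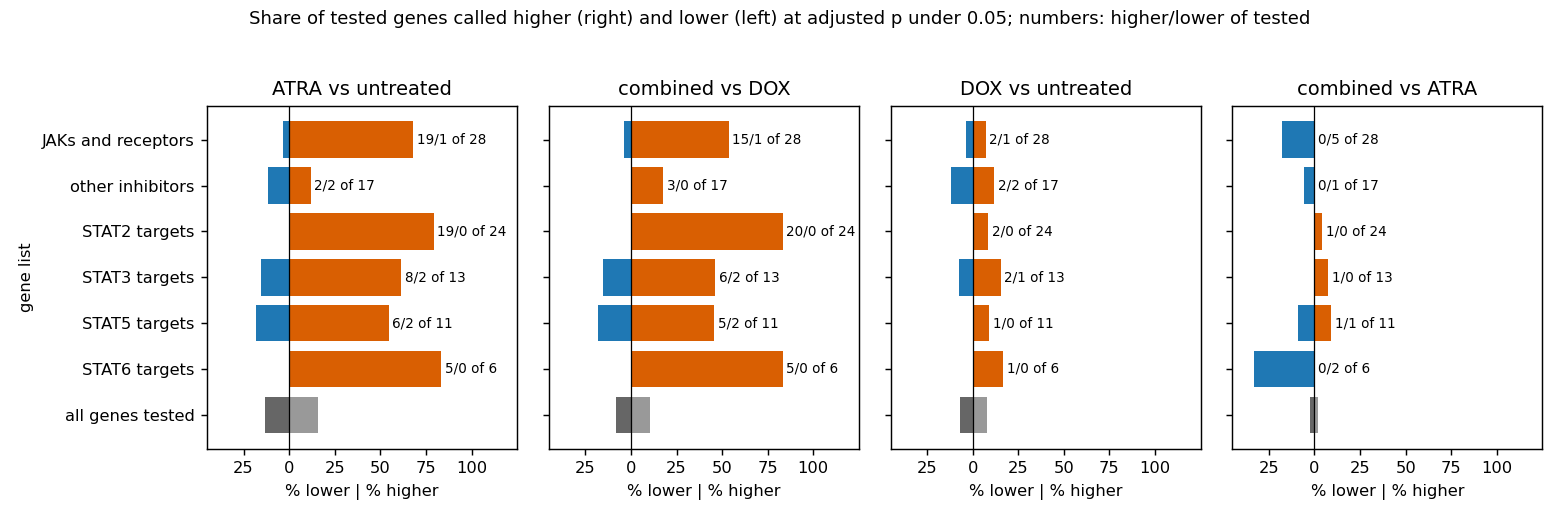
Share of the tested genes of each list that rose (right of 0) or fell (left) in 4 comparisons, in percent, with the counts printed beside the bars and all 16104 tested genes in grey. The STAT6 targets tested include CLEC10A and TGM2, which passed the filter through the groups with ATRA. STAT2 targets rose for 19 and 20 of 24 in the ATRA comparisons, and receptors and JAKs fell for 5 of 28 between combined and ATRA cells.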

How the data were processed

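Total RNA of MOLM14 cells was read in paired-end mode (Illumina NovaSeq, per the labels' protocols). The authors deposited 1 table of raw, unscaled read counts, whole numbers for each gene in each of the 12 libraries. The submitters' processing notes name FastQC, STAR, HTSeq and GRCh38, while versions, annotation release and strand setting are not given in the sources used here. Symbols came from a table of gene names, which held 61369 of 61487 identifiers, and coordinates and exon lengths from GENCODE release 29.

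The 12 libraries were grouped from the labels, 3 each, and totals ran from 2685984 to 19358619 counts. Genes were modelled in edgeR 4.0.16 (R 4.3.3) after filterByExpr (16104 genes kept) and TMM scaling, with 1 quasi-likelihood model of the 4 group means for 6 contrasts. The threshold was a Benjamini-Hochberg adjusted p of 0.05 over all tested genes, and the biological coefficient of variation was 9.54%. Each standard error was taken as the size of the log2 change divided by √F. CPM use TMM-scaled library sizes. No 2 libraries held identical counts. Since the series' design text calls the replicates biological without saying how cultures were split, p-values measure the spread between these samples.

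Named genes are the 9 members, NRIP1, up to 4 genes a list and contrast with the smallest adjusted p, followed in other contrasts, and the 3 closest genes to each called member. JAK1, JAK2, JAK3, FLT3, IRF9, MX1, SOCS2-AS1 and MAPKAPK3 were added after their values were seen. The members and lists were chosen with earlier results of these data known. Alternatives were DESeq2 1.42.0, library size alone, no filter, the groups of a contrast alone, a replicate block and thinning to 2685984 counts in a single random draw (equal depth). Further ones were a term for the share of mitochondrial ribosomal RNA, and leaving out single libraries or untreated replicate 3 with DOX replicate 3. For pathway genes and lists the same alternatives were added after seeing the data. The fit was tested on simulated counts.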

Additional observations from a re-analysis of the deposited data

Results flagged for a closer look

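IL7R, the interleukin 7 receptor gene, was the 1 of 28 tested receptors and JAKs that passed for the interaction (−1.08, adjusted p = 0.0339 in edgeR's quasi-likelihood test). Of all genes 0.267% passed. IL13RA1 fell just short (−0.66 ± 0.14, adjusted p = 0.0558), and the median interaction was −0.20 for the 28 and −0.01 for all genes. ATRA changed IL7R by 1.61 ± 0.15 without DOX and by 0.53 ± 0.16 with it. The call was lost without untreated replicate 1, 2 or 3, ATRA replicate 1 or 3, or combined replicate 2 or 3, with values from −1.19 to −0.93 over all single libraries left out.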

How the results depend on the processing

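The number of members called for DOX alone went from 1 to 0 with library size alone, the mitochondrial ribosomal RNA term or without the pair of untreated replicate 3 plus DOX replicate 3, and to 3 at equal depth; single libraries left out gave 0 to 2. The share of all genes called moved as well, from 15.2% to 11.65%, 0.478%, 1.04% and 9.45% in these 4 settings. Between combined and ATRA it went from 0 to 1 with DESeq2, without a filter and with the groups fitted alone, and was 0 to 1 with single libraries left out. From untreated to combined the number of members was 1 to 4 (1 without untreated replicate 2). The share of all genes there ran from 17.3% (no filter) to 41.3% (without DOX replicate 2). For the interaction the number was 0 to 1, and the share of all genes ran from 0.0553% (without the pair) to 4.51% (without DOX replicate 1). Whether libraries of the same replicate number share a culture is not given in the sources used here. Correlations between them ran from −0.244 to 0.267 over 18 pairs, 4 above 0.1, which cannot settle this with 3 libraries a group. The replicate block ended 1 member call, STAT5A from untreated to combined (0.21, adjusted p = 0.0585).

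Signs turned for some values, none of them called. Not all of these were close to 0, with SOCS3 for DOX at 0.21 at full depth and −0.29 at equal depth. For ATRA, CISH was 0.22 at equal depth. For DOX, STAT5A was −0.01 (library size alone), −0.04 (equal depth) and −0.04 (mitochondrial term), SOCS3 −0.29 (equal depth) and −0.01 (mitochondrial term), STAT2 0.11, STAT3 0.08 and SOCS2 −0.07 (mitochondrial term), and STAT3 0.04 without the pair of libraries. Without a filter, STAT5A was 0.00 between combined and ATRA, and STAT6 0.03 and SOCS2 0.01 from untreated to combined, where STAT6 was 0.07 with the mitochondrial term and 0.03 without the pair. Between combined and DOX, STAT5B was 0.06 and NRIP1 −0.09 at equal depth. For the interaction, STAT5B was −0.00 (DESeq2) and −0.01 (no filter), STAT5A 0.04, STAT6 0.07 and SOCS2 0.06 (equal depth), and STAT5A 0.00 and SOCS2 0.09 (mitochondrial term). The cause was not tested.

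With single libraries left out, values ran for DOX from −0.40 to 0.06 (STAT2), −0.16 to 0.01 (STAT3) and −0.00 to 0.07 (STAT5A). Between combined and ATRA they ran from −0.08 to 0.03 (STAT5A) and −0.35 to 0.02 (CISH), and between combined and DOX from −0.29 to 0.10 (SOCS1). From untreated to combined they ran from −0.04 to 0.03 (STAT6) and −0.08 to 0.04 (SOCS2). For the interaction they ran from −0.31 to 0.14 (STAT2), −0.10 to 0.01 (STAT5A), −0.08 to 0.06 (STAT5B), −0.10 to 0.01 (STAT6) and −0.12 to 0.08 (SOCS2).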

Other observations

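The genes whose log2 CPM followed each called member most closely over the 12 libraries, among genes of at least 2 CPM on average, are given as a description, since groups and depth are shared by all points. SOCS3 was followed by NT5C2 (Pearson r = 0.987), a nucleotidase, ADIPOR2 (0.985), an adiponectin receptor, and CNNM2 (0.978), a magnesium transporter. STAT2 was followed by OTUD7B (0.979), ALOX12 (0.971) and PRKCB (0.966), and STAT6 by SGSM2 (0.979), FCGR2C (0.974) and DYNC2H1 (0.962). STAT3 was followed by ULK4 (0.945), NAT10 (0.937) and LDLRAD4 (0.924), and STAT5A by RRP7A (0.938), SMPDL3A (0.921) and TOLLIP (0.920). CISH had the lowest values, with CAT (0.878), CD109 (0.864) and CHPF2 (0.862).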
